A study of Mus musculus with 8 samples.

Results

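The genes described here are 43 components of transforming growth factor beta (TGF-beta) and bone morphogenetic protein (BMP) signalling, out of 24499 gene symbols in an RNA sequencing table of the newborn mouse testis. They comprise 13 genes listed as ligands, 2 latent TGF-beta binding proteins, 11 receptors, 8 Smads, 5 antagonists and 4 Id genes, and all 43 were found by symbol. Where a gene had several transcripts, the one with the highest average of the 2 group means stands for it. The rule lists the genes by symbol, and within it measured values enter only in the choice of transcript. The list itself was drawn up with earlier results of these data known. Whole testes of 4 mice labelled Dio3KO were compared with those of 4 wild-type mice, all on 129/SVJ and taken on postnatal day 5. The enzyme made from Dio3, a deiodinase, breaks down thyroid hormones, and the title of the study points to thyroid hormone regulation in the newborn gonad. How the Dio3 allele was changed is not in the labels, nor is it stated whether the mice of a group were littermates.

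TGF-beta family ligands bind paired type I and type II receptor kinases at the cell surface. TGF-beta, activin and nodal signals are passed on mainly through Smad2 and Smad3, and BMP signals through Smad1, Smad5 and Smad9, and both sets enter the nucleus with the shared partner Smad4. Smad6 and Smad7 block the pathway from inside the cell, noggin, chordin and gremlin trap BMPs outside it, and the Id genes are classical transcriptional targets of BMPs. In the testis this family is known from germ cell formation, from the proliferation and differentiation of spermatogonia and Sertoli cells, and from Leydig cell function.

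Levels are the authors' group means in RPKM, reads normalised to transcript length and library size, so levels of different genes can be set side by side per length. The coefficient of variation (CV, the SD divided by the mean) of each group was deposited with them. Values of single mice were not used here, so it cannot be seen whether mice of both groups overlapped, and the depth of each library is unknown. Ratios are log2 ratios of the means with 0.5 RPKM added to each, Dio3KO-labelled over wild type, which understates the change of low genes, and their standard errors (SE) were computed from the CVs. A gene is said to have risen or fallen only where its adjusted p in the authors' deposited table was below 0.05. Dio3 itself was at 2.95 RPKM in Dio3KO-labelled testes (CV 0.29) and 0.52 RPKM in wild-type testes (CV 0.20, the authors' deposited table, adjusted p = 0.0408). It was thus higher under the knockout label, which is no check of that label while the altered part is unknown, and every direction below rests on the label. The extraction text names hypothalami although tissue and source are given as testis. The 9 hypothalamic neuropeptide genes found in the table summed to 2.84 RPKM in Dio3KO-labelled samples and 4.43 RPKM in wild-type samples. By contrast, 8 Sertoli cell genes summed to 1588 RPKM in Dio3KO-labelled and 1337 RPKM in wild-type samples. Most of this was Clu, at 1232 RPKM in Dio3KO-labelled and 797 RPKM in wild-type samples, and of the 8 genes 3 rose and 4 fell. The sum of 10 germ cell genes was 266.8 RPKM in Dio3KO-labelled and 290.7 RPKM in wild-type samples.

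Of the 43 members, 36 had a group mean of 1 RPKM or more in one group at least, and 7 did not. Among those 36, 9 rose and 5 fell in Dio3KO-labelled testes and 22 did not pass the threshold, so that 38.9% passed. The background is high, since 29.7% of all 15821 genes with at least 1 RPKM passed, 13.8% higher and 15.8% lower. Alternative call rules have other backgrounds: limma's moderated test called 12 members higher and 6 lower where it called 41.6% of all genes, an unequal-variance test recomputed here called 13 members where it called 30.1%, and a stricter threshold of 0.01 on the p of the authors' deposited table left 3 members where it left 9.17%. By size alone, 3 members (Tgfb2, Tgfb3 and Id2) were 2-fold higher or more and 0 were 2-fold lower or more. Of all genes, 2.24% differed by that much, 1.52% upwards and 0.721% downwards. The median log2 ratio of the 36 members was -0.02 and that of all genes tested was -0.05. The members are described by role.

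**Figure D1:**
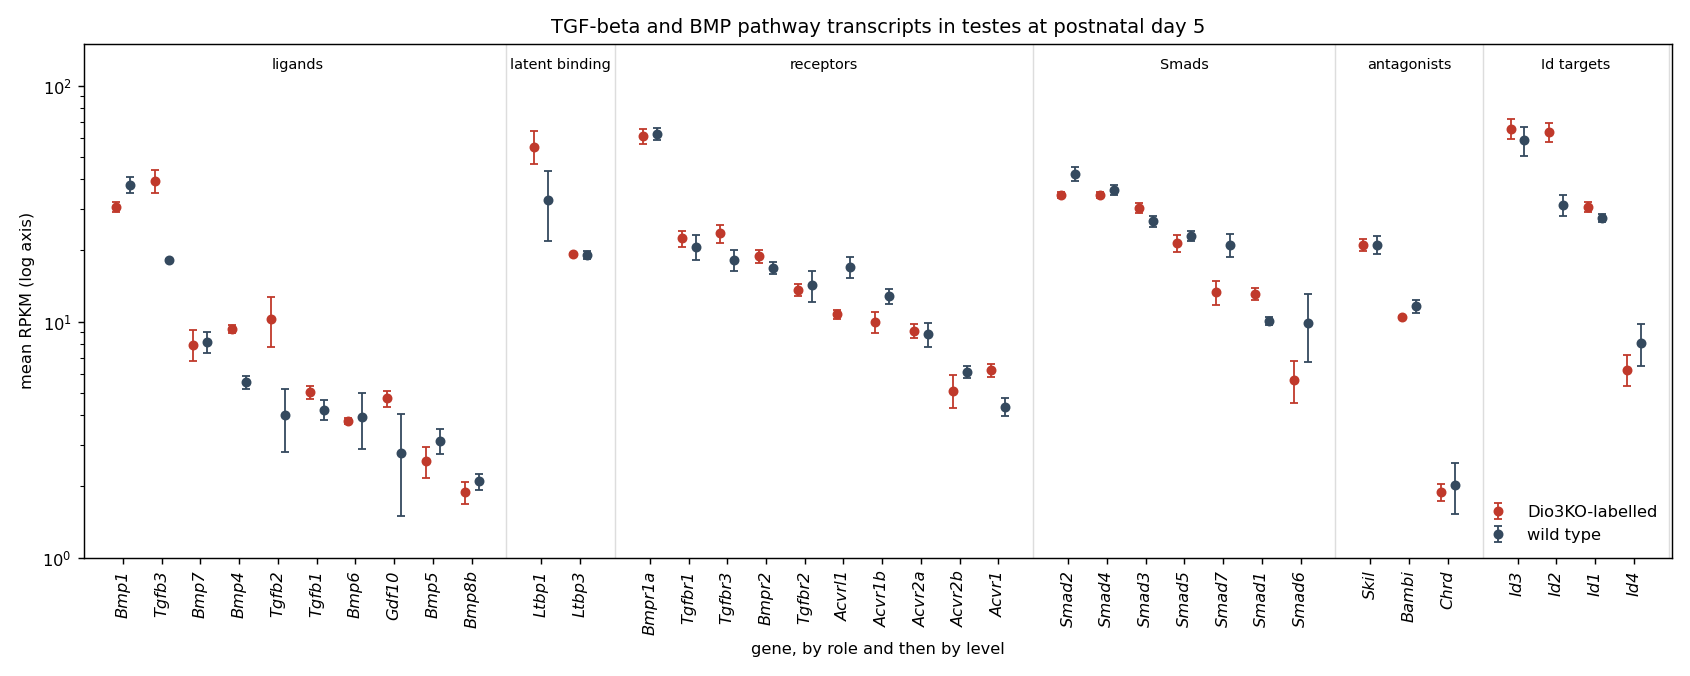
Group means in RPKM (log axis) of the 36 members with at least 1 RPKM, by role and then by level, with Dio3KO-labelled testes (red) left of wild-type testes (dark). Bars span 1 SD as given by the deposited CVs; Tgfb3, Id2 and Tgfb2 stand clearly higher in Dio3KO-labelled testes, and Acvrl1 and Smad7 lower.

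Marker levels of some cell types differ between the same groups, and the counts are to be read beside the 29.7% of all genes past the threshold. Macrophage markers summed to 127.6 RPKM in Dio3KO-labelled testes and 60.4 RPKM in wild-type testes, and 7 of the 9 with at least 1 RPKM rose. Endothelial markers summed to 102.5 RPKM in Dio3KO-labelled and 77.9 RPKM in wild-type testes, and 6 of 10 rose. Leydig cell markers summed to 574.4 RPKM in Dio3KO-labelled and 390.3 RPKM in wild-type testes, and 2 of 6 rose, 33.3%, near that background. These were Cyp11a1 (156 RPKM in Dio3KO-labelled, 64.2 RPKM in wild-type testes) and Hsd3b1 (245 RPKM in Dio3KO-labelled, 158 RPKM in wild-type testes). The other 4 did not pass, Star and Lhcgr with higher means in Dio3KO-labelled testes, and Cyp17a1 and Insl3 with lower means. Peritubular myoid and smooth muscle markers summed to 540.6 RPKM in Dio3KO-labelled and 587.6 RPKM in wild-type testes, 2 of 6 having risen and 1 fallen. Most of this sum was Acta2, which fell (346 RPKM in Dio3KO-labelled, 401 RPKM in wild-type testes), while Des and Myh11 rose. Of the Sertoli cell markers, 3 rose and 4 fell. All 10 cell cycle genes fell, and they summed to 290.1 RPKM in Dio3KO-labelled and 494.3 RPKM in wild-type testes. For the 10 germ cell markers the authors' deposited table gave 0 calls, while limma's moderated test called 2 higher and 4 lower, and 6 had an unadjusted limma p below 0.05. The share of all genes at that unadjusted p was not computed, so such counts, here and below, have no background. No list had a marker at 0 in both groups. In whole testes, fewer cells of a type and less RNA per cell cannot be told apart, and the part of these marker differences in the results below was not tested.

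The TGF-beta ligands proper were the tier with the largest differences. The summed level of Tgfb1, Tgfb2 and Tgfb3 was 54.8 RPKM in Dio3KO-labelled testes and 26.4 RPKM in wild-type testes, and Tgfb3 made up 72.1% of that sum in Dio3KO-labelled and 68.8% in wild-type testes. Tgfb3 had a mean of 39.5 RPKM in Dio3KO-labelled testes (CV 0.11), against 18.2 RPKM in wild-type testes (CV 0.01). Its log2 ratio was 1.10 ± 0.08 (SE, the authors' deposited table, adjusted p = 0.0156). The gene (ENSMUSG00000021253.7) lies on the minus strand of chromosome 12 from 86056745 to 86079041 in GRCm38, the assembly behind the build mm10 (GENCODE M21). Tgfb2, the ligand isoform best known from heart and urogenital development, showed the largest ratio of all members. Its means were 10.3 RPKM in Dio3KO-labelled testes (CV 0.24) and 4.00 RPKM in wild-type testes (CV 0.30), a log2 ratio of 1.26 ± 0.25 (SE, the authors' deposited table, adjusted p = 0.0348). The CVs of Tgfb2 were above the members' median in both groups, and those of Tgfb3 in Dio3KO-labelled testes. Tgfb1, the isoform prominent in immune cells, stood at 5.01 RPKM (CV 0.06) in Dio3KO-labelled testes and 4.23 RPKM (CV 0.10) in wild-type testes and did not pass (the authors' deposited table, adjusted p = 0.0744). Tgfb1 was passed by limma's moderated test (adjusted p = 0.0451, log2 ratio 0.22, 95% interval 0.04 to 0.40).

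Both listed transcripts of Tgfb2 had log2 ratios of 1.26. Tgfb2 (ENSMUSG00000039239.14) lies on the minus strand of chromosome 1 from 186622792 to 186705989. The 250 bases before its RefSeq start (GRCm38.p6, chr1:186705990-186706239, minus strand) are shown because it is the member with the largest ratio. Capitals mark a CCAAT box and a TATAAA box, 2 general core promoter motifs that were looked for after the sequences had been seen. The TATAAA match begins at position -31 from the start.
Tgfb2: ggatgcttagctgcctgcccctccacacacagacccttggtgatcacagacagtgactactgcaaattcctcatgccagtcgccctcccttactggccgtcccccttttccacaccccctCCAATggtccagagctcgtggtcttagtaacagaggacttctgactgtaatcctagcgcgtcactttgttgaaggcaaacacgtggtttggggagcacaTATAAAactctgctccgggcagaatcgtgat
On either strand, TATAAA is found in 12.4% of all 32851 promoter windows of this length and CCAAT in 33.8%. Of 35 such windows for the 29 members with an entry, 2 hold TATAAA, those of Tgfb2 and Bmpr1b. The nuclear receptor half-site AGGTCA is not in the Tgfb2 window, and is in 2 member windows (Grem1 and Bmpr1b) against 14.0% of all windows.

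Among the BMP and related ligands, Bmp4 alone rose. Bmp4, needed for the formation of primordial germ cells, had means of 9.27 RPKM in Dio3KO-labelled testes (CV 0.04) and 5.52 RPKM in wild-type testes (CV 0.06). That is a log2 ratio of 0.70 ± 0.05 (SE, the authors' deposited table, adjusted p = 0.0026), the smallest p of any member, and its second listed transcript had a log2 ratio of 0.71. Bmp1 is a metalloprotease that trims procollagens and cleaves chordin, and is no BMP ligand in spite of its name. It fell to 30.5 RPKM in Dio3KO-labelled testes (CV 0.05), against 37.9 RPKM in wild-type testes (CV 0.08), a log2 ratio of -0.31 ± 0.07 (SE, the authors' deposited table, adjusted p = 0.0437). Bmp7 was the most abundant BMP that did not pass, at 7.97 RPKM in Dio3KO-labelled (CV 0.15) and 8.21 RPKM in wild-type testes (CV 0.10). Gdf10, a BMP3-like ligand, had means of 4.72 RPKM in Dio3KO-labelled testes (CV 0.08) and 2.78 RPKM in wild-type testes, where its CV was 0.46, and missed the threshold (the authors' deposited table, adjusted p = 0.1141). The plain ratio of its means was 1.70, against 1.68 for Bmp4, and it passed limma's moderated test (adjusted p = 0.0488). Bmp5 (2.56 RPKM in Dio3KO-labelled, 3.13 RPKM in wild-type testes), Bmp6 (3.80 RPKM in Dio3KO-labelled, 3.93 RPKM in wild-type testes) and Bmp8b (1.89 RPKM in Dio3KO-labelled, 2.10 RPKM in wild-type testes) did not pass.

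The ligands Bmp2, Gdf9 and Nodal stayed below 1 RPKM in both groups. Bmp2 was at 0.88 RPKM in Dio3KO-labelled and 0.87 RPKM in wild-type testes, and Nodal at 0.08 RPKM in Dio3KO-labelled and 0.12 RPKM in wild-type testes. Gdf9, known as an oocyte growth factor, was at 0.26 RPKM in Dio3KO-labelled and 0.44 RPKM in wild-type testes, and although its adjusted p (0.0166, the authors' deposited table) lies below the threshold it is not counted because of its level.

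The 2 latent TGF-beta binding proteins, which tether inactive TGF-beta to the matrix, were both well expressed. Ltbp1 had means of 55.1 RPKM in Dio3KO-labelled testes (CV 0.16) and 32.7 RPKM in wild-type testes (CV 0.33). Its log2 ratio was 0.75 ± 0.26 (SE), and its adjusted p (0.0611, the authors' deposited table) missed the threshold, as did those of its other listed transcripts, the lowest of which was 0.0506 in the authors' deposited table. Limma's moderated test called Ltbp1 higher (adjusted p = 0.0244). Ltbp3 was at 19.4 RPKM in Dio3KO-labelled and 19.2 RPKM in wild-type testes, with CVs of 0.01 and 0.04, and its limma 95% interval ran from -0.09 to 0.11 on the log2 scale. Thus 0 of the 2 passed in the authors' deposited table, and 1 of 2, which was Ltbp1, had an unadjusted limma p below 0.05.

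**Figure D2:**
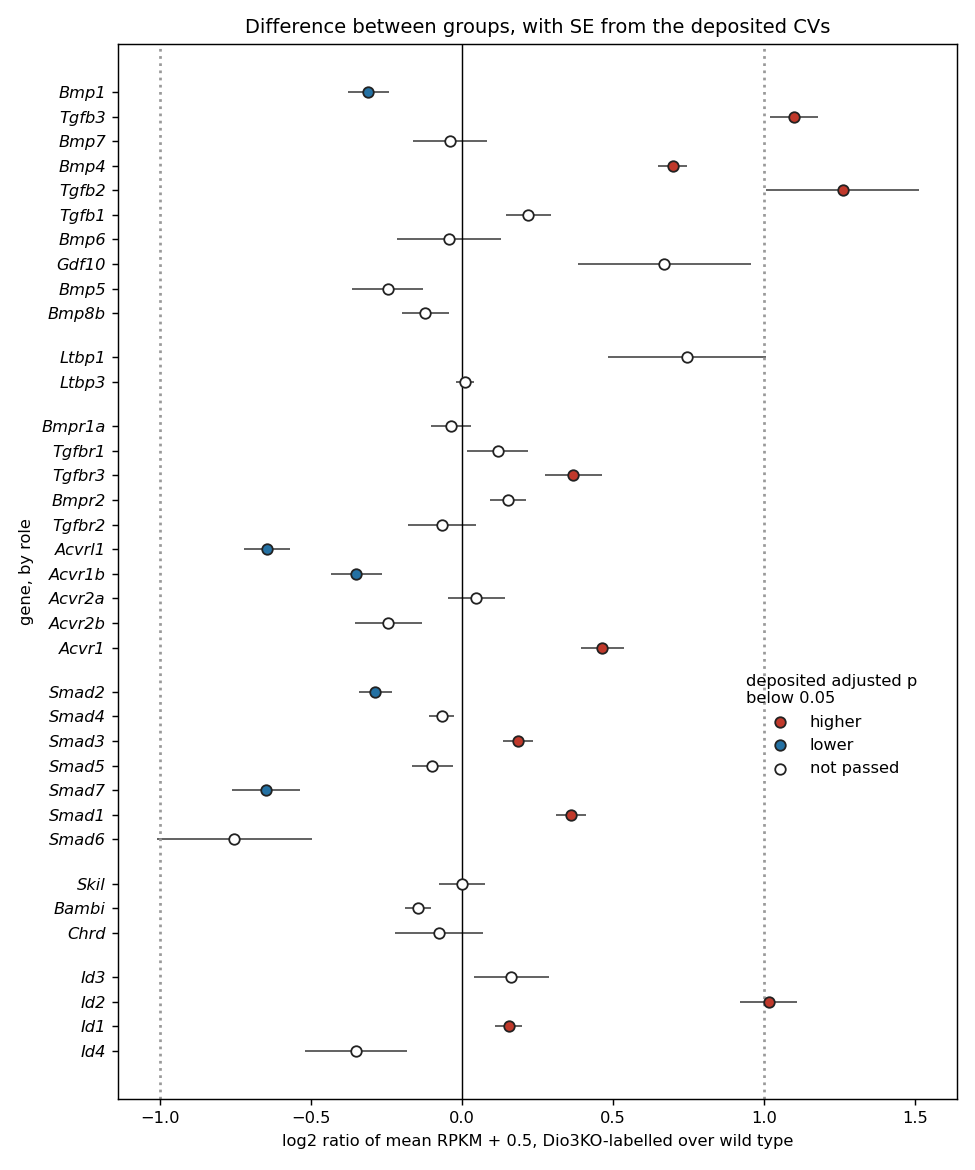
Log2 ratio of Dio3KO-labelled over wild-type testes for the 36 members with at least 1 RPKM, by role, with SE computed from the deposited CVs; red and blue points had a deposited adjusted p below 0.05, higher and lower. Dotted lines mark a 2-fold difference, reached by Tgfb2, Tgfb3 and Id2.

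The receptors showed smaller differences, 2 higher and 2 lower among the 10 with at least 1 RPKM, 40%, beside the background of 29.7%. All 4 that passed were type I receptors or the coreceptor Tgfbr3. Acvr1 (ALK2), a type I receptor for BMPs and for anti-Müllerian hormone, rose to 6.21 RPKM in Dio3KO-labelled testes (CV 0.06), against 4.36 RPKM in wild-type testes (CV 0.09). Its log2 ratio was 0.47 ± 0.07 (SE, the authors' deposited table, adjusted p = 0.0078), and all 3 listed transcripts passed. Tgfbr3 encodes betaglycan, a coreceptor that presents TGF-beta2 and binds inhibin. It rose to 23.6 RPKM in Dio3KO-labelled testes (CV 0.09), against 18.2 RPKM in wild-type testes (CV 0.10), a log2 ratio of 0.37 ± 0.09 (SE, the authors' deposited table, adjusted p = 0.0372). Its second transcript passed as well, with a log2 ratio of 0.44.

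Acvrl1 and Acvr1b moved the other way. Acvrl1 (ALK1), a type I receptor known from endothelium, fell to 10.7 RPKM in Dio3KO-labelled testes (CV 0.04), against 17.1 RPKM in wild-type testes (CV 0.10). The log2 ratio was -0.65 ± 0.08 (SE, the authors' deposited table, adjusted p = 0.022), and the 5 listed transcripts, all past the threshold, had ratios of -0.65. Of the 10 endothelial markers given above, 6 rose in the same samples and 4 did not pass. The cell type behind the lower Acvrl1 level was not tested. Acvr1b (ALK4), the type I receptor for activin and nodal, fell to 9.93 RPKM in Dio3KO-labelled testes (CV 0.10), against 12.8 RPKM in wild-type testes (CV 0.07), a log2 ratio of -0.35 ± 0.08 (SE, the authors' deposited table, adjusted p = 0.0286). These genes are neighbours on the plus strand of chromosome 15. In GRCm38 with GENCODE M21, Acvrl1 (ENSMUSG00000000530.16) runs from 101128522 to 101145336 and Acvr1b (ENSMUSG00000000532.11) from 101174067 to 101213684, 28730 bases apart, with 0 RefSeq genes lying wholly between them.

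Bmpr1a, the BMP type I receptor, was the most abundant receptor, and a difference was not detected. It was at 60.9 RPKM in Dio3KO-labelled testes (CV 0.07) and 62.4 RPKM in wild-type testes (CV 0.06), with a limma 95% interval of -0.17 to 0.10 on the log2 scale. Its paralog Bmpr1b stood near the lower limit, at 0.98 RPKM in Dio3KO-labelled and 0.65 RPKM in wild-type testes. Tgfbr1, the type I receptor for TGF-beta, was at 22.5 RPKM in Dio3KO-labelled (CV 0.08) and 20.7 RPKM in wild-type testes (CV 0.12). The type II receptors gave 0 calls in the authors' deposited table and 0 with limma's moderated test, although 2 of the 4 had an unadjusted limma p below 0.05. Their means, Dio3KO-labelled before wild type, were 18.9 and 16.9 RPKM for Bmpr2, 13.6 and 14.3 RPKM for Tgfbr2, 9.14 and 8.83 RPKM for Acvr2a, and 5.10 and 6.13 RPKM for Acvr2b. Summed, the type II receptors reached 46.7 RPKM in Dio3KO-labelled and 46.2 RPKM in wild-type testes.

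Within the Smads, members of one functional pair went opposite ways. Smad2 fell to 34.5 RPKM in Dio3KO-labelled testes (CV 0.03), against 42.2 RPKM in wild-type testes (CV 0.07), a log2 ratio of -0.29 ± 0.05 (SE, the authors' deposited table, adjusted p = 0.036). Smad3 rose to 30.3 RPKM in Dio3KO-labelled testes (CV 0.05), against 26.6 RPKM in wild-type testes (CV 0.05), a log2 ratio of 0.19 ± 0.05 (SE, the authors' deposited table, adjusted p = 0.0419). Smad2 thus remained the higher of the pair in both groups, by a smaller margin in Dio3KO-labelled testes, and their sum was 64.8 RPKM there and 68.8 RPKM in wild-type testes. With the sums of RPKM of both groups made equal, the log2 ratios were -0.19 for Smad2 and 0.28 for Smad3. On the BMP side, Smad1 rose to 13.1 RPKM in Dio3KO-labelled testes (CV 0.06), against 10.1 RPKM in wild-type testes (CV 0.04), a log2 ratio of 0.36 ± 0.05 (SE, the authors' deposited table, adjusted p = 0.0132). Smad5, the more abundant BMP Smad, was at 21.5 RPKM in Dio3KO-labelled (CV 0.08) and 23.0 RPKM in wild-type testes (CV 0.05) and did not pass. Smad9 stood below 1 RPKM in both groups, at 0.70 RPKM in Dio3KO-labelled and 0.52 RPKM in wild-type testes. The common partner Smad4 was at 34.5 RPKM in Dio3KO-labelled (CV 0.03) and 36.2 RPKM in wild-type testes (CV 0.05), with a limma 95% interval of -0.18 to 0.04 on the log2 scale.

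Both inhibitory Smads had lower means in Dio3KO-labelled testes. Smad7, which is induced by TGF-beta and recruits ubiquitin ligases to its receptor, fell to 13.3 RPKM in Dio3KO-labelled testes (CV 0.12), against 21.2 RPKM in wild-type testes (CV 0.11). Its log2 ratio was -0.65 ± 0.11 (SE, the authors' deposited table, adjusted p = 0.0168), and its 3 listed transcripts had ratios between -0.70 and -0.65, all past the threshold. Smad6, which acts mainly on the BMP branch, was at 5.65 RPKM in Dio3KO-labelled testes (CV 0.20) and 9.88 RPKM in wild-type testes (CV 0.32). Its ratio of -0.76 ± 0.26 (SE) was the lowest of all members tested, yet its adjusted p (0.1404, the authors' deposited table) missed the threshold. Limma's moderated test, which pools the spread across genes, called Smad6 lower (adjusted p = 0.0221). Together the inhibitory Smads summed to 19.0 RPKM in Dio3KO-labelled and 31.1 RPKM in wild-type testes, 0.611 times as much.

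**Figure D3:**
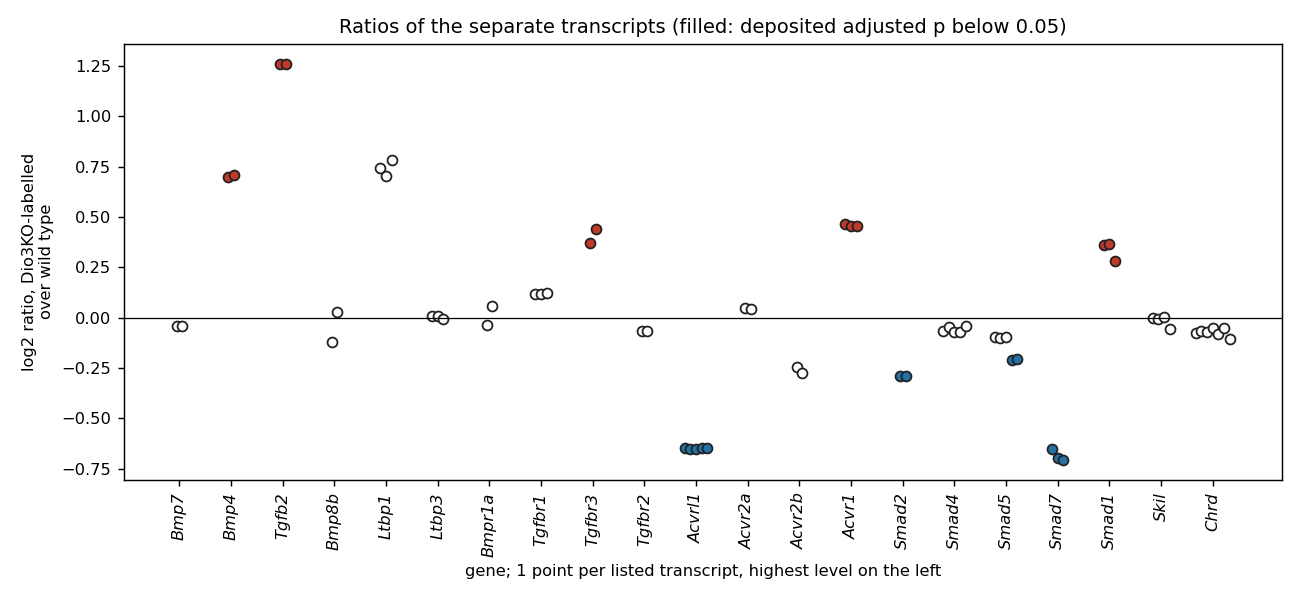
Log2 ratio of each listed transcript for the members with at least 1 RPKM and more than 1 transcript; filled points had a deposited adjusted p below 0.05 (red higher, blue lower in Dio3KO-labelled testes). Transcripts of a gene lie close together, and Smad5 is the gene whose transcripts are split, 2 of 5 being past the threshold.

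Transcripts of one gene mostly told the same story. The 43 members had 90 listed transcripts, and 22 members had more than 1. Smad5 was the 1 member whose transcripts differed in call, since 2 of its 5 fell, both with log2 ratios near -0.21 to -0.20, while the best expressed one did not pass at -0.10. In 4 members the sign of the ratio differed between transcripts (Bmp8b, Bmpr1a, Ltbp3 and Skil), none of them past the threshold and all with ratios between -0.12 and 0.06. These transcripts share exons, so they are not independent measurements.

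The antagonists were low or showed no call. Noggin (Nog) stood at 0.60 RPKM in Dio3KO-labelled and 0.69 RPKM in wild-type testes, and gremlin (Grem1) at 0.02 RPKM in Dio3KO-labelled and 0.04 RPKM in wild-type testes, both under 1 RPKM. Chordin (Chrd) was at 1.89 RPKM in Dio3KO-labelled testes (CV 0.08) and 2.02 RPKM in wild-type testes (CV 0.24). Bambi, a decoy receptor without kinase activity, was at 10.4 RPKM in Dio3KO-labelled (CV 0.01) and 11.6 RPKM in wild-type testes (CV 0.06) (the authors' deposited table, adjusted p = 0.0928). Skil, which encodes the nuclear corepressor SnoN and is itself a TGF-beta target, was at 21.2 RPKM in both groups, with CVs of 0.06 in Dio3KO-labelled and 0.09 in wild-type testes and a limma 95% interval of -0.15 to 0.15 on the log2 scale. Of the 3 antagonists with at least 1 RPKM, 0 were called in the authors' deposited table and 0 by limma's moderated test, and 1 of 3 had an unadjusted limma p below 0.05.

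Id2 accounts for most of the difference in the Id family. Id proteins bind E-proteins and keep them off DNA, and Id4 marks spermatogonial stem cells. Id2 rose to 63.6 RPKM in Dio3KO-labelled testes (CV 0.09), against 31.2 RPKM in wild-type testes (CV 0.10), a log2 ratio of 1.02 ± 0.10 (SE, the authors' deposited table, adjusted p = 0.0074). It made up 38.2% of the summed Id level in Dio3KO-labelled testes and 24.9% in wild-type testes. Id1, the classical BMP target, rose by far less, to 30.7 RPKM in Dio3KO-labelled testes (CV 0.05), against 27.5 RPKM in wild-type testes (CV 0.04). The log2 ratio of Id1 was 0.15 ± 0.05 (SE, the authors' deposited table, adjusted p = 0.0476), and the recomputed unequal-variance test did not call it (adjusted p = 0.0555). With the sums of RPKM made equal its log2 ratio was 0.25. Id3 was at 65.7 RPKM in Dio3KO-labelled (CV 0.10) and 58.6 RPKM in wild-type testes (CV 0.14) and did not pass. Id4 was at 6.26 RPKM in Dio3KO-labelled testes (CV 0.15) and 8.12 RPKM in wild-type testes (CV 0.20), the 1 Id gene with a lower mean, and did not pass either (the authors' deposited table, adjusted p = 0.1858). The direct difference between Id2 and the other Id genes was not tested.

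The ratios of Id2 and Id4 had opposite signs, but Id4 did not pass the threshold. Sequence before their RefSeq starts is shown for the GC-rich motif GGCGCC, known from BMP response elements, in capitals. For Id2 (ENSMUSG00000020644.9) these are 89 bases of the RefSeq promoter window that lie outside annotated exons, GRCm38.p6, chr12:25096254-25096342 on the minus strand, and for Id4 (ENSMUSG00000021379.2) 250 bases before the RefSeq start, chr13:48260866-48261115 on the plus strand. The RefSeq start of Id2 lies 1048 bases downstream of the gene's 5′ end in GENCODE M21, so the Id2 stretch precedes a shorter transcript and lies in an intron of a longer one. Capitals in Id4 also mark 2 CCAAT boxes, read as ATTGG on this strand.
Id2: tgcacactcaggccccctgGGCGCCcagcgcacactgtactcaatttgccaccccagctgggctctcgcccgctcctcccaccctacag
Id4: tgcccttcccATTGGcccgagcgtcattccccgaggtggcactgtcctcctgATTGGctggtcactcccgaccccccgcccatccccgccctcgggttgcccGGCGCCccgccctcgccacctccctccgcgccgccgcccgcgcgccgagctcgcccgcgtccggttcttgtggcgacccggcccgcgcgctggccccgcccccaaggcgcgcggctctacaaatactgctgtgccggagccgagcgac
The motif begins at position -231 from this internal RefSeq start in Id2, and at -148 from the RefSeq start in Id4, and these positions are not comparable for the longer Id2 transcript. GGCGCC occurs in 9 of the 35 member windows, 25.7%, and in 9.59% of all windows, and the members that hold it are Bmpr1a, Bmpr2, Chrd, Grem1, Id2, Id4, Smad5, Smad9 and Tgfbr1. Of these, Grem1 and Smad9 were below 1 RPKM in both groups and could not be called. Among the others Id2 alone was past the threshold, which 29.7% of all genes passed. The palindromic Smad motif GTCTAGAC was in 0 of the 35 member windows and in 0.167% of all windows.

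**Figure D4:**
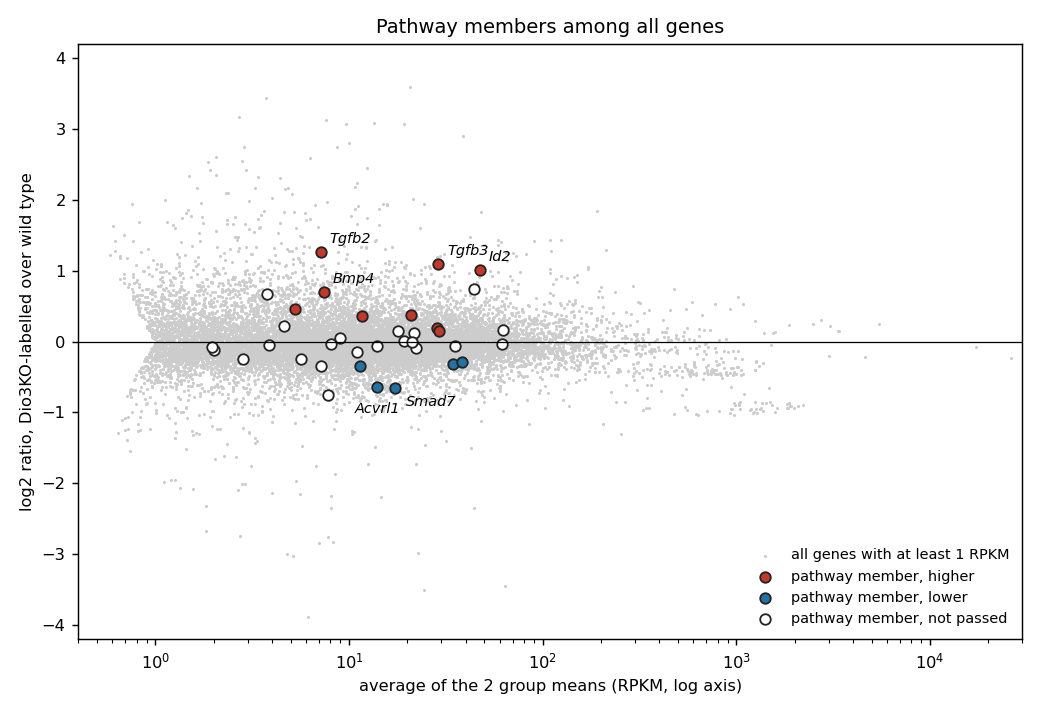
Log2 ratio against the average of the 2 group means (RPKM, log axis) for all 15821 genes with at least 1 RPKM (grey) and the 36 members (circles; red higher, blue lower, white not past the threshold). Tgfb2, Tgfb3 and Id2 lie above 1 on the log2 scale, where 1.52% of all genes lie.

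The spread between mice was somewhat larger in wild-type testes. The median CV of the 36 members was 0.075 in Dio3KO-labelled and 0.095 in wild-type testes, and that of all genes tested was 0.06 in Dio3KO-labelled and 0.08 in wild-type testes. The CV was higher in wild-type testes for 23 of the 36 members, 63.9%, against 59.5% of all genes tested. Among the 36, those with a wild-type CV above 0.30 were Gdf10, Ltbp1 and Smad6. All of them missed the threshold in the authors' deposited table and passed limma's moderated test. Tgfb2, with a wild-type CV of 0.30, passed both.

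Other genes of the pathway, 108 in 7 lists drawn up by known function, gave 14 higher and 11 lower among 80 with at least 1 RPKM, 31.2%, close to the background of 29.7%. The remaining ligands included 3 of 9 that fell and 0 that rose. Amh, the anti-Müllerian hormone of immature Sertoli cells, fell to 127 RPKM in Dio3KO-labelled testes, against 284 RPKM in wild-type testes (the authors' deposited table, adjusted p = 0.0094). Inhbb, the activin and inhibin beta B subunit, fell to 65.8 RPKM in Dio3KO-labelled testes, against 93.1 RPKM in wild-type testes. Gdf15, a stress-induced ligand, fell to 0.70 RPKM in Dio3KO-labelled testes (CV 0.34), against 4.61 RPKM in wild-type testes (CV 0.30), a log2 ratio of -2.09 ± 0.24 (SE). Inha, the inhibin alpha subunit, was at 455 RPKM in Dio3KO-labelled and 435 RPKM in wild-type testes, and Inhba, the activin beta A subunit, at 5.78 RPKM in Dio3KO-labelled and 11.6 RPKM in wild-type testes, and neither passed. Inhba was called lower by limma's moderated test (adjusted p = 0.000285). In the list of other receptors and coreceptors 3 of 5 rose and 0 fell. Rgmb and Rgma, BMP coreceptors anchored by a lipid, were at 18.2 and 5.77 RPKM in Dio3KO-labelled testes, against 13.5 and 4.61 RPKM in wild-type testes, and Eng (endoglin), the partner of ALK1 in endothelium, rose to 16.4 RPKM in Dio3KO-labelled testes, against 13.2 RPKM in wild-type testes, a call lost in the recomputed unequal-variance test (adjusted p = 0.051). Amhr2 (178 RPKM in Dio3KO-labelled, 132 RPKM in wild-type testes) and Tmem100 (7.47 RPKM in Dio3KO-labelled, 7.41 RPKM in wild-type testes) did not pass.

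Extracellular modulators were divided, 2 of 12 higher and 2 lower, 33.3%, beside the background of 29.7%. Sostdc1, a BMP antagonist, fell to 0.93 RPKM in Dio3KO-labelled testes, against 2.03 RPKM in wild-type testes. Fst (follistatin), which traps activin, rose to 4.28 RPKM in Dio3KO-labelled testes, against 3.11 RPKM in wild-type testes, and Dcn (decorin), a matrix proteoglycan that binds TGF-beta, to 600.1 RPKM, against 357 RPKM in wild-type testes. Fstl1 (162 RPKM in Dio3KO-labelled, 183 RPKM in wild-type testes) and Bgn (77.1 RPKM in Dio3KO-labelled, 79.8 RPKM in wild-type testes) did not pass.

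Of 11 genes of latency and activation, 3 rose and 0 fell, 27.3%, close to the background of 29.7%. Furin, the protease that cleaves TGF-beta precursors, rose to 30.6 RPKM in Dio3KO-labelled testes (CV 0.04), against 21.2 RPKM in wild-type testes (CV 0.03) (the authors' deposited table, adjusted p = 0.0042). The integrin subunit Itgav rose to 33.3 RPKM in Dio3KO-labelled testes, against 25.1 RPKM in wild-type testes. Nrros (listed as Lrrc33), which anchors latent TGF-beta on macrophages, rose to 4.58 RPKM in Dio3KO-labelled testes, against 2.53 RPKM in wild-type testes, beside the higher macrophage markers given above. Ltbp4 (117 RPKM in Dio3KO-labelled, 119.9 RPKM in wild-type testes) and Fbn1 (78.4 RPKM in Dio3KO-labelled, 81.8 RPKM in wild-type testes) did not pass. Among 19 intracellular regulators, 4 rose and 4 fell, 42.1%, beside the same background. The corepressors Ski and Tgif1 fell to 30.3 and 38.8 RPKM in Dio3KO-labelled testes, against 39.1 and 57.5 RPKM in wild-type testes. Tab1, an activator of the kinase TAK1, fell to 15.0 RPKM in Dio3KO-labelled testes, against 17.6 RPKM in wild-type testes. Fkbp1a, which holds type I receptors inactive, rose to 78.9 RPKM in Dio3KO-labelled testes, against 59.5 RPKM in wild-type testes. Sptbn1 (listed as Spnb2; 114 RPKM in Dio3KO-labelled, 105 RPKM in wild-type testes) and Ppm1a (58.97 RPKM in Dio3KO-labelled, 57.6 RPKM in wild-type testes) did not pass.

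Counts among genes known as targets depended on the test. Of 16 TGF-beta target genes 1 rose and 2 fell, 18.8%, and of 8 BMP target genes 1 rose and 0 fell, 12.5%, beside the background of 29.7%. Limma's moderated test called 4 higher and 4 lower of the 16 TGF-beta targets, and 2 higher and 2 lower of the 8 BMP targets, beside its background of 41.6%. No difference from the background was tested. Jun rose to 26.9 RPKM in Dio3KO-labelled testes, against 22.1 RPKM in wild-type testes. Acta2, smooth muscle actin, fell to 346 RPKM in Dio3KO-labelled testes, against 401 RPKM in wild-type testes, and Tgfb1i1 to 12.9 RPKM, against 14.8 RPKM in wild-type testes. The collagen genes Col3a1 (1071 RPKM in Dio3KO-labelled, 778 RPKM in wild-type testes) and Col1a2 (915 RPKM in Dio3KO-labelled, 637 RPKM in wild-type testes) did not pass, with wild-type CVs of 0.31 and 0.28. Tbx3, a BMP-induced T-box factor, rose to 2.51 RPKM in Dio3KO-labelled testes (CV 0.16), against 1.13 RPKM in wild-type testes (CV 0.10). Dusp6 (33.6 RPKM in Dio3KO-labelled, 35.3 RPKM in wild-type testes) and Hes1 (14.7 RPKM in Dio3KO-labelled, 16.7 RPKM in wild-type testes) did not pass.

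**Figure D5:**
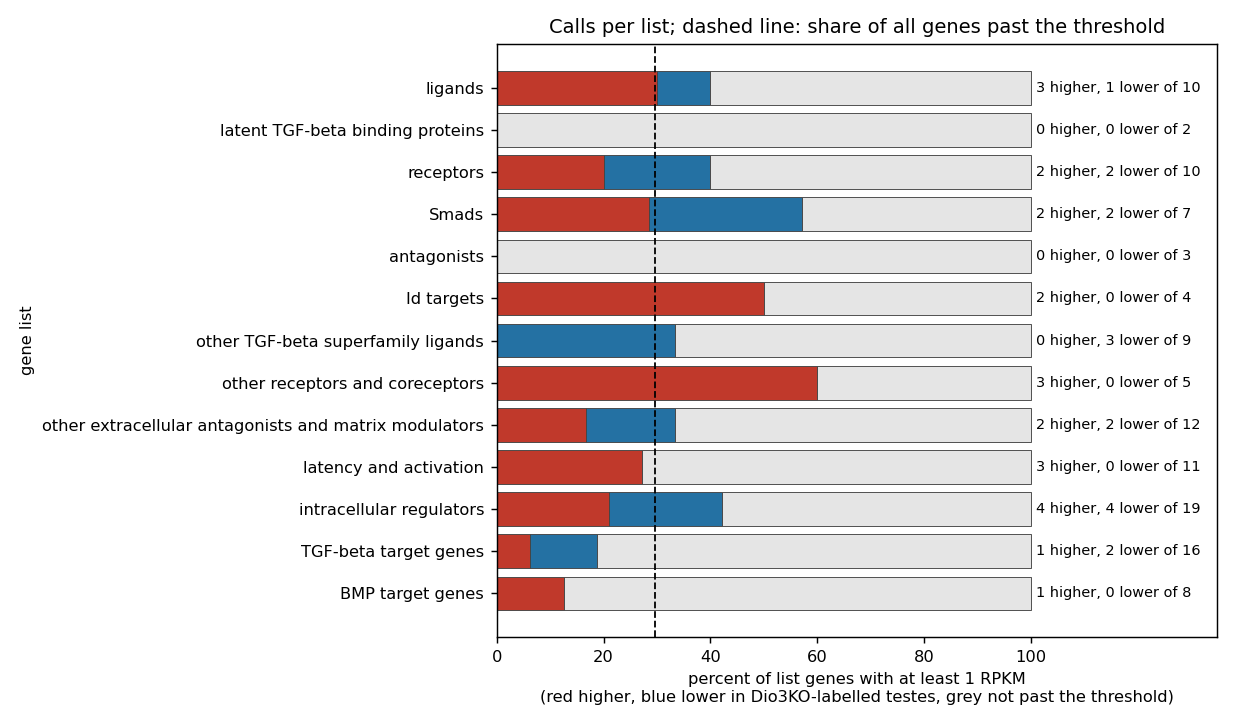
Percent of each list's genes with at least 1 RPKM that were higher (red), lower (blue) or not past the threshold (grey) in Dio3KO-labelled against wild-type testes, with counts on the right. The dashed line is the 29.7% of all genes past the threshold. Ligands, receptors, Smads, Id genes, other ligands, coreceptors, extracellular modulators and intracellular regulators lie above it. Latent binding proteins, antagonists, the latency and activation list and both target lists lie below it. The lists are short, so 1 gene can shift a share by many points. Under limma's moderated test the target lists had 8 of 16 and 4 of 8 genes called, beside 41.6% of all genes.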

How the data were processed

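RNA from 8 testis samples was sequenced, and FastQC, Novoalign 2.08 and the build mm10 are named per the submitters' processing notes, without a role. Counting tool, annotation, strandedness and statistical test were not given in the sources used here. In the table the authors deposited are mean RPKM per group, the CV of each group (the ratio of SD to mean) and an adjusted p-value for each transcript, per the file headers. The table's 147417 lines held 49139 distinct transcripts. Symbols were matched with case ignored, older symbols of list genes through RefSeq. The value columns are the mean and CV of each of the 2 groups and the adjusted p of their comparison, so the table holds no per-sample columns. Depth per sample is unknown.

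Calls are the deposited adjusted p-value below 0.05 in genes with at least 1 RPKM in either group. SEs were propagated from the CVs (delta method, 4 samples in each group). As an alternative, limma 3.58.1 in R 4.3.3 moderated the variances (squeezeVar with trend and robust, Benjamini-Hochberg over 15821 genes, CVs of 0 set to 0.0025). Tested on simulated data for the comparison of 4 against 4 over 15821 genes, it called 94 of 100 genes changed 2-fold, 78 of 100 changed 1.5-fold and 10 of 15621 unchanged ones. In that simulation few genes were changed, genes were drawn independently, and both groups shared the CV of each gene. In the real data it called 41.6% of all genes and CVs differed between groups, so these rates need not hold there. Nothing says that the mice came from separate litters, so p-values measure the spread between these samples.

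Every member was accounted for, with full values for those past the threshold and for the best expressed 2 of each role that were not. From each other list up to 4 genes with the smallest p and the 2 best expressed others were named. One gene that this rule names is not reported here. The members and lists were chosen with earlier results of these data known. Promoters are from RefSeq (GRCm38.p6), where 29 of the 43 members matched, and gene coordinates from GENCODE M21.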

Additional observations from a re-analysis of the deposited data

How the results depend on the processing

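The counts of members called (9 higher, 5 lower) were within 1.5 times under limma's moderated test (12 and 6), the recomputed unequal-variance test, either filter and the transcript with the smallest p. With the deposited adjusted p below 0.01, members called dropped to 3 (3 higher, namely Bmp4, Acvr1 and Id2, and 0 lower), and all genes called to 1451. Called at 0.01 were 1 ligand, 1 receptor, 0 Smads, 1 Id gene and 6 genes of the other lists. An unadjusted limma p below 0.05 was found for 23 of the 36 members in either direction, but the share of all genes at that p was not computed. The recomputed unequal-variance test called 1 Id gene, and limma's moderated test 1 latent binding protein and 40 genes of the other lists against 25. All 14 called members passed limma's moderated test, which added Tgfb1, Gdf10, Smad6 and Ltbp1. The summed RPKM was 947625 in Dio3KO-labelled and 1015250 in wild-type testes, and making the sums equal adds about 0.10 to the log2 ratios of well expressed genes. For low genes the 0.5 RPKM added to each mean makes the shift smaller, as in Gdf15, from -2.09 to -2.03. Under equal sums 0 of the 14 called members and 7 of the 22 others changed sign, (Bmp6, Bmp7, Tgfbr2, Bmpr1a, Smad4, Chrd and Skil), and 4 of the 22 when ratios were centred on the median gene (Bmp6, Bmp7, Bmpr1a and Skil). Of 71 single-gene ratios, a pseudocount of 0.1 or 1 RPKM moved 2 by more than the spread between replicates, Gdf15 (-2.56 and -1.72) and Tbx3 (1.09 and 0.72). By the same criterion, equal sums of RPKM moved 22 of the 71, and centring on the median gene moved 3. Those moved by equal sums included the called members Bmp1, Bmp4, Smad1, Smad2, Smad3 and Id1. GTCTAGAC was in 1 member window when the 50 bases after the start were added, an alternative chosen after seeing the data, as were the CCAAT and TATAAA motifs. No paired analysis was possible because the table holds group means only, and leaving out single replicates was not run for the same reason. The cause of these differences was not tested.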
